A study of Mus musculus with 6 samples.

Results

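Microglia carrying much PD-L1 protein on their surface were set against microglia of the same hashed sample carrying little. Microglia are the resident macrophages of the brain. PD-L1, coded by Cd274, was read as an antibody tag, and RNA was read from the same cells by CITE-seq, in which DNA-barcoded antibodies are sequenced together with the transcripts. Cells with at least 500 RNA UMIs (counts of distinct molecules), under 10% mitochondrial UMIs and at least 80% of their hashtag UMIs from 1 hashtag were taken, and those under hashtags 3 to 6 were kept. Microglia held at least 3 UMIs of P2ry12, Tmem119, Siglech and Gpr34 together and at most 1 UMI of Ms4a7, Ly6c2, Plac8 and Ccr2 together. Of 36755 barcodes in all, 22157 met the limits on RNA UMIs, mitochondrial UMIs and hashtag share, under any hashtag. Among these 9589 were microglia, of which 4772 carried hashtags 3 to 6. The gates were chosen by measured protein: within each hashed sample, cells were ordered by a centred log ratio, which sets the PD-L1 tag (natural log after adding 1) against the average of all 10 tags that the pools have in common. The highest and the lowest 25% formed a PD-L1-high and a PD-L1-low gate. In 10 of 12 hashed samples each gate held at least 20 cells, which gave 1166 PD-L1-high and 1166 PD-L1-low microglia out of 4680. Hashtags 5 and 6 of pool 3 held 57 and 35 microglia and gave no gates.

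The mice were C57BL/6, 12 weeks old, and the cells were CD11b+ brain cells, CD11b being an integrin subunit of myeloid cells. Each of 3 pools joined 6 hashed samples, from tumor-bearing female and male mice at day 14 or day 21 after implantation and from female and male controls without tumor, 18 hashed samples in all. Tumor-bearing hemispheres were used, or whole brains in controls, after perfusion with ice-cold saline and enzymatic dissociation. The series concerns glioma, but the labels name no tumor line. They do not say which hashtag marked which sample or how many animals gave it, so no sex, day or tumor comparison was made and p-values measure the spread between hashed samples, which may be partly technical. Every comparison of gates lies within a hashed sample, so that PD-L1-high and PD-L1-low cells share a hashtag and a library.

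PD-L1 binds PD-1 on T cells and restrains them. Interferon gamma is a strong inducer of Cd274, acting through its receptor, the kinases JAK1 and JAK2 and the factor IRF1, and the surface protein is kept from degradation by CMTM6. Microglia of the healthy brain carry little PD-L1 and gain it in inflammation and in the surroundings of tumors, and RNA and protein need not follow each other because the protein is also regulated by recycling and turnover.

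The promoters of Cd274 and of 3 interferon-responsive genes described below are shown because their RNAs were all higher in PD-L1-high microglia. Each is the RefSeq stretch from 250 bases before to 50 after the start of the gene, build GRCm38.p6. Cd274 lies at chr19:29367188-29367487 on the plus strand, Cxcl9 at chr5:92328030-92328329 and Cxcl10 at chr5:92348840-92349139 on the minus strand, and Gbp2 at chr3:142620413-142620712 on the plus strand. Capitals mark a match to the core of the interferon-stimulated response element, GAAANNGAA, read on either strand.
Cd274: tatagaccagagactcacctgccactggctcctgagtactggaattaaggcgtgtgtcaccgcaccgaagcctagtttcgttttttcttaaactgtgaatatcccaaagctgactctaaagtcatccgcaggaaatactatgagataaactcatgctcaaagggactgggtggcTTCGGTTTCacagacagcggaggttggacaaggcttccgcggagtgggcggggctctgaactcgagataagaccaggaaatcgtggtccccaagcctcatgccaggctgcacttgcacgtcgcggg
Cxcl9: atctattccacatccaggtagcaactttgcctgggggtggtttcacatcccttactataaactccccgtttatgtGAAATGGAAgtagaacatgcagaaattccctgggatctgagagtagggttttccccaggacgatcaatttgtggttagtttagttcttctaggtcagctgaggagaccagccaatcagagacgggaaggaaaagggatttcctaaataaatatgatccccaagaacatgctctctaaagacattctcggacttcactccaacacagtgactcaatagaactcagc
Cxcl10: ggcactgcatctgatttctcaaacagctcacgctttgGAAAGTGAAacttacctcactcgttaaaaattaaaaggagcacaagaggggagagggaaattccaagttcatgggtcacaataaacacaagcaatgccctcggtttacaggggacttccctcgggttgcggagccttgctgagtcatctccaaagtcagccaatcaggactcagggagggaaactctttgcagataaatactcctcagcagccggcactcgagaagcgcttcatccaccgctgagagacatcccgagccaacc
Gbp2: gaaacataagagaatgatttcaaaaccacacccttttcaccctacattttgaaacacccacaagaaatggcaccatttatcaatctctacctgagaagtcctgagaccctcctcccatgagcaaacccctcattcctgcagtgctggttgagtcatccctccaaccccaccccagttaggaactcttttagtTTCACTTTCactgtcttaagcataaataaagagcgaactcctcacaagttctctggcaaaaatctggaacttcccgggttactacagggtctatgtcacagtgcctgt
Each of the 4 windows held 1 such core, and none held a gamma-activated site, TTCNNNGAA. The core starts at base 175 of the Cd274 window, where it is read on the opposite strand. Of 32851 windows of this length over the genome, 8.56% held the core, 8.30% the gamma-activated site and 1.07% both, which share the letters GAA and can overlap. Counted by gene, 20 of 34 interferon-induced genes with a window (58.8%) and 9 of 10 interferon-inducible GTPases held the core, against 0 of 23 homeostatic microglia genes and 9.76% of all 27025 genes. The gamma-activated site was in 5 of the 34, 6 of the 10 and 2 of the 23, in 4 of 14 genes of interferon gamma signalling and in 9.55% of all genes. A match of letters is a description of the sequence and not a binding site.

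The gates were set by the tag itself, so the tag levels are given without a test. The median PD-L1 tag per cell was 70.5 UMIs in PD-L1-high microglia (32.5 to 110 over the 10 samples) and 14.5 in PD-L1-low microglia (11 to 20). In pool 1 hashtag 3 the lowest cell inside the high gate stood at -0.463 on the centred log ratio and the next cell outside it at -0.464. This edge thus parted cells of nearly equal score, and whether the range has a gap elsewhere was not tested. All 10 tags enter the ranking, and most moved with it. MHC class II had a median of 355 UMIs in PD-L1-high and 88.25 in PD-L1-low microglia, CD49d 59.25 and 26, Gr-1 123 and 68.75, Ly-6C 396 and 274.75, CD45 135.5 and 85.5 and CD52 6 and 2.5. TMEM119, a microglial surface protein, went the other way in 10 of 10 samples, with 46.5 UMIs in PD-L1-high and 80.5 in PD-L1-low microglia. When cells were ranked by the raw PD-L1 count instead, the median tag was 79.75 UMIs in PD-L1-high and 12.5 in PD-L1-low microglia, and TMEM119 was at 65 and 59.5. Of the 1166 PD-L1-high cells by centred log ratio, 820 (70.3%) were also high by raw count, and 764 of the 1166 PD-L1-low cells (65.5%) were also low.

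The pools gave 74848339, 107880924 and 71510276 RNA UMIs in 13925, 11010 and 11820 barcodes. A hashtag held the majority in 79.2% of the filtered barcodes of pool 1 and 87.5% of pool 2 but in 16.1% of pool 3, which gave 2 of the 10 samples with gates. Between 32 and 53 barcode sequences were shared by pairs of pools. Pool 3 hashtag 3 stood apart, with 22 infiltrating cells and the lowest Cxcl9, Cxcl10 and Gbp2 RNA among the PD-L1-high gates, and without it the counts of changed genes were 1763 higher and 1852 lower. The PD-L1-high cells held more RNA, with a median of 7051.5 UMIs per cell against 4744.5 in PD-L1-low cells, a geometric mean ratio within samples of 1.58 and higher in 10 of 10 samples (2-sided exact sign permutation p = 0.00195, the smallest possible; 0.00439 adjusted over 9 comparisons). They also held more hashtag UMIs, 669 against 226.25, a measure that takes no part in the ranking. Their mitochondrial share was 2.94% against 2.15%. The CCR2 tag, read in pools 2 and 3 only, had a median of 17.25 UMIs in PD-L1-high and 9 in PD-L1-low microglia. The part of depth, of hashtag UMIs and of tag background in the results was not tested, but gates drawn within 3 strata of RNA depth are given beside the results they bear on.

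Both gates carried microglial RNA. Sall1, a transcription factor that marks microglia, had a median of 118 CPM (UMIs scaled to a common library size) in PD-L1-high and 290 in PD-L1-low microglia, against 1.53 in infiltrating cells of the same samples. The 26 markers of monocytes and infiltrating macrophages, none at 0, summed to a median of 2322 CPM in PD-L1-high microglia (1246 to 3615) and 1171 in PD-L1-low microglia (926 to 1251), higher in 10 of 10 samples, against 23917 CPM in infiltrating cells (19840 to 28429). Of 12 such markers tested, 9 were higher and 0 lower, among them Vim at a log2 fold change of 2.36 and Lyz2 at 1.36, and the remaining 3 were S100a6, S100a10 and Cd14. With cells ranked by raw count S100a6 did pass, at 1.25. Arg1 reached 1288 CPM in 1 PD-L1-high sample, pool 1 hashtag 5, against a median of 9.03 in the PD-L1-high gates and at most 6.67 in the PD-L1-low gates. Ccr2 and Ly6c2, limited by the selection, were at 0.991 and 5.78 CPM in PD-L1-high and 3.95 and 9.78 CPM in PD-L1-low microglia. The part of infiltrating cells or of their free RNA in the results was not tested. Summed markers of border macrophages and neutrophils were higher in 1 of 10 samples each, of dendritic cells in 1, of NK and T cells in 3, of B cells in 0 and of other brain cells in 4, with Lyve1, Cd8a, Ms4a1, Iglc2, Cldn5 and Pdgfra at 0 in every gate.

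Cd274 RNA followed the protein. It lay between 24.6 and 130 CPM in PD-L1-high microglia, with a median of 78.1, and between 0 and 39.9 CPM in PD-L1-low microglia, with a median of 12. The means were 76.7 ± 28.3 and 13.5 ± 10.9 CPM (SD, n = 10 hashed samples each). Every sample was higher in its PD-L1-high gate, but the ranges overlapped because the PD-L1-low gate of pool 2 hashtag 5 was at 39.9 CPM and the PD-L1-high gate of pool 3 hashtag 3 at 24.6. The log2 fold change was 2.48 ± 0.17 (SE), or 5.58-fold, with an adjusted p of 7.8e-13 in edgeR's quasi-likelihood test. Ranked by raw count it was 2.27 ± 0.18 with an adjusted p of 4.6e-11, and within strata of RNA depth it was 2.19.

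**Figure D1:**
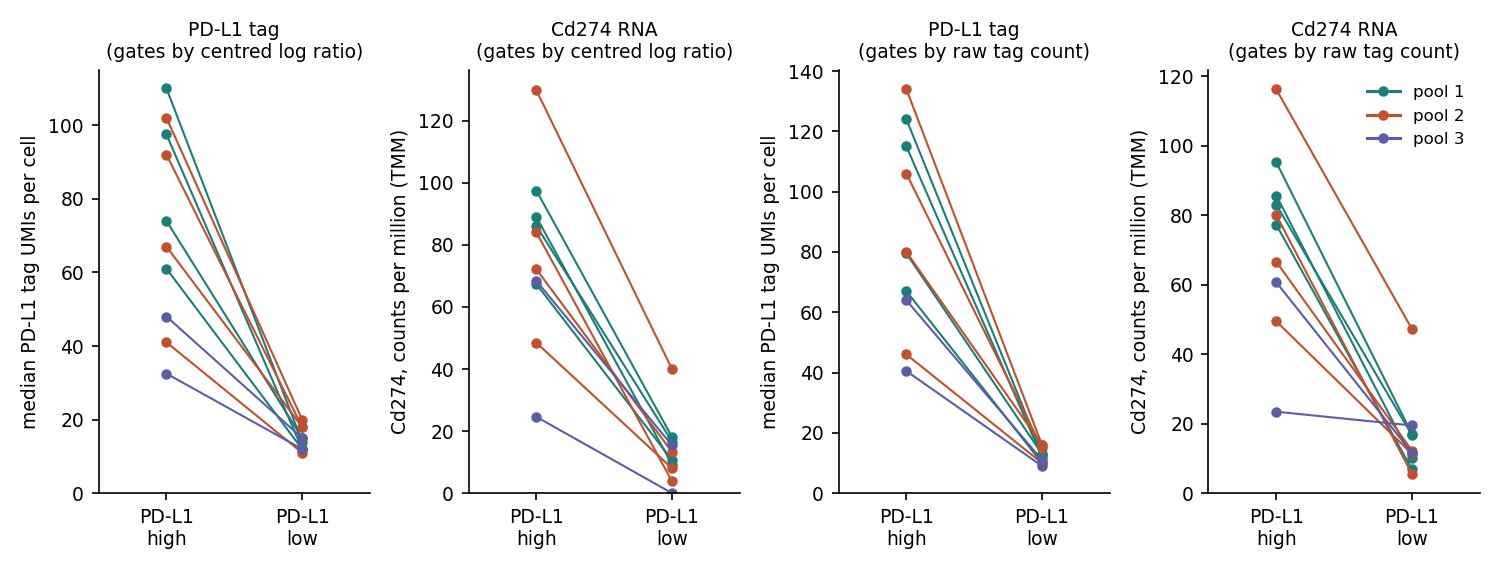
Median PD-L1 tag UMIs per cell and Cd274 RNA in TMM-scaled CPM in the PD-L1-high (left) and PD-L1-low (right) gates, for gates by centred log ratio and by raw tag count. Each line joins the gates of 1 of 10 hashed samples, coloured by pool, and every line falls from the high to the low gate.

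Cd274 RNA was highest in the top 25% of the protein ranking in 9 of 10 samples, the exception being pool 3 hashtag 3, with 25.7 CPM in bin 3 and 23.7 in bin 4. Over 4 bins of 25% each, low to high, the median tag was 14.5, 23, 35.5 and 70.5 UMIs, and the median Cd274 level was 12.3, 19.1, 30.1 and 73 CPM. Bins 1 and 4 hold the cells of the PD-L1-low and PD-L1-high gates. Bin levels, like the marker levels above, are plain CPM. Gate levels of Cd274 and of the genes below are TMM-scaled, so the values differ. Thinned to 2000 RNA UMIs per cell, the median share of cells with a Cd274 UMI was 1.98%, 3.28%, 4.49% and 11.3% (4.72%, 7.56%, 14.2% and 28.3% unthinned). NK and T cells serve as a class low in the tag, with median PD-L1 tags of 19, 21 and 21 UMIs in the 3 pools. The median tag of bin 1 lay below these and that of bin 2 close to them. Whether such levels differ from tag background was not tested. NK and T cells gave thinned shares of 3.25% of 123 cells in pool 1 and 4.17% of 72 in pool 2. Their median depths were 2532 and 3701 UMIs. In pool 3 their share was 17.6% of 17 cells, with an exact 95% interval from 3.8% to 43.4% that covers counting error only. Microglia of hashtags 1 and 2 gave 0.861% to 1.98% over 6 samples. Cxcl10 had medians of 67.4, 170, 255 and 1019 CPM over the bins, and Apoe 859, 1167, 1681 and 4070 CPM. B2m, the light chain of MHC class I, changed less, with 2920, 3578, 4048 and 4419 CPM. Across all microglia of hashtags 3 to 6 Cd274 stood at 41.7, 39.4 and 34.3 CPM in the 3 pools, against 3.9 to 10.6 CPM in the 6 samples of hashtags 1 and 2.

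**Figure D2:**
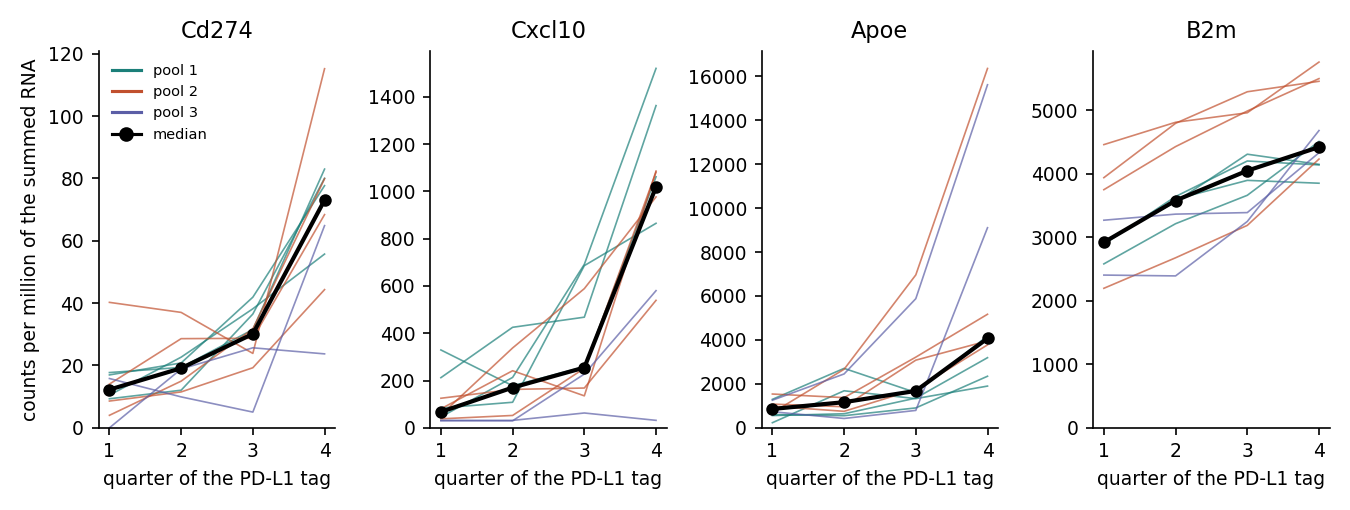
RNA in CPM of the summed cells in each 25% bin of the PD-L1 ranking (1 lowest, 4 highest) for 4 genes. Thin lines are the 10 hashed samples coloured by pool and the black line is their median, which reaches 73 CPM for Cd274 in bin 4 while B2m is at 4419.

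Large parts of the transcriptome differed with the protein. Of 6791 genes tested, 1749 (25.8%) were higher and 1686 (24.8%) lower in PD-L1-high microglia at an adjusted p under 0.05, and the median log2 fold change was -0.04. Scaled by library size alone, the split was 1181 higher and 2759 lower and the median moved to -0.23, so changes are read relative to that median. Ranked by raw count, 1609 of 6567 genes (24.5%) were higher and 1693 (25.8%) lower, and 2957 genes were called in the same direction by both rankings, 86.1% of the calls by centred log ratio and 89.6% of those by raw count, with 0 in opposite directions. Within strata of RNA depth 1483 genes were higher and 1265 lower. The counts below are read against these shares of all genes. A gene entered the test if its level sufficed in the samples of a single gate, so rare genes high in that gate alone are among those tested. For lists of rare genes the counts of rises and falls can be partly set by this filter.

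**Figure D3:**
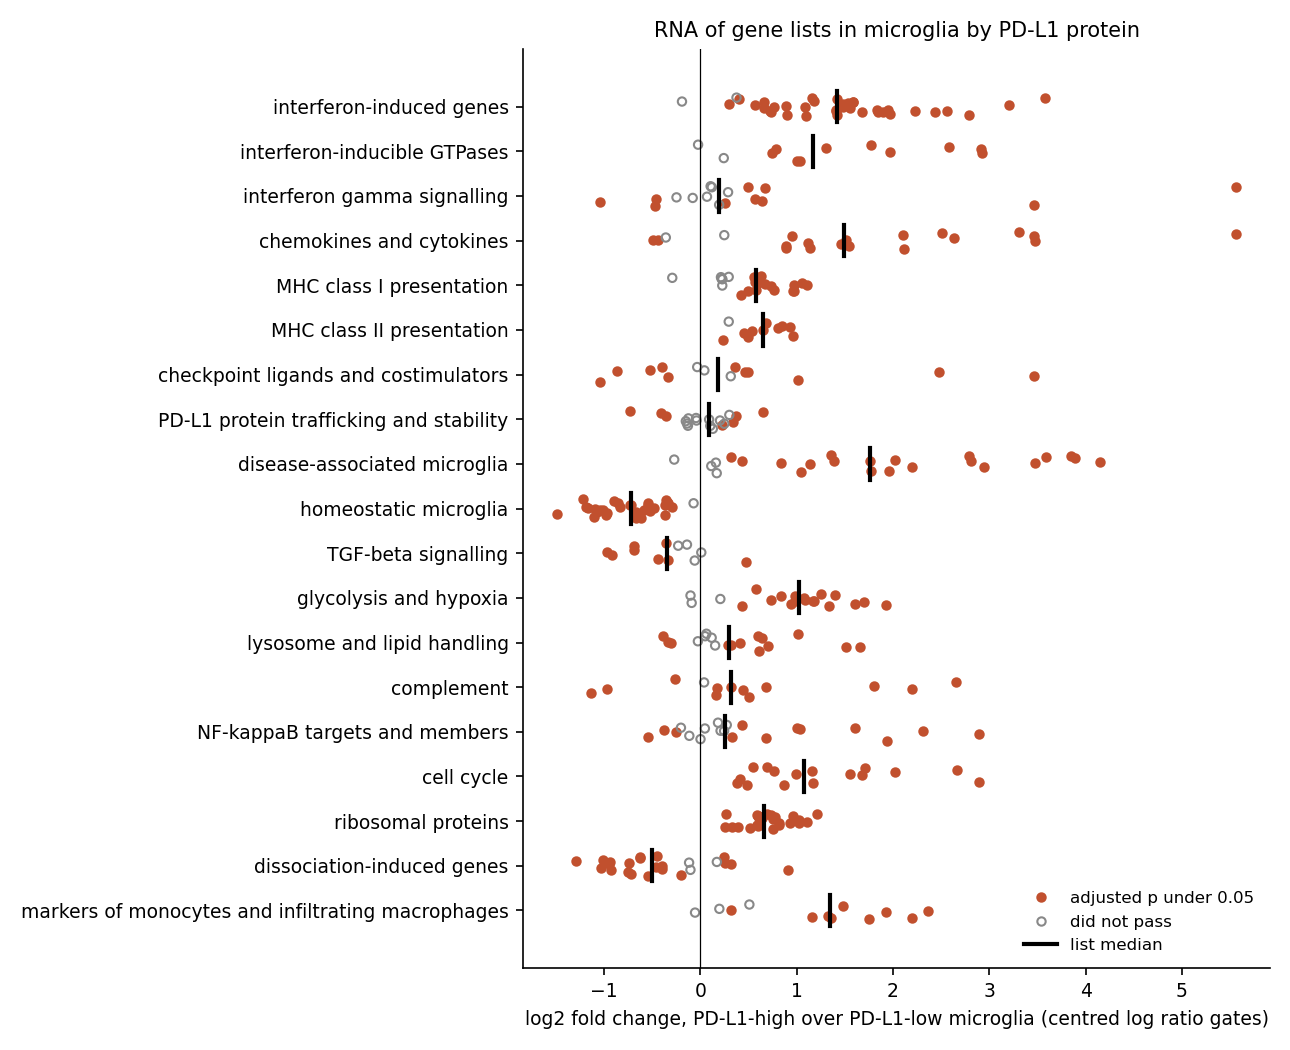
Log2 fold change of RNA, PD-L1-high over PD-L1-low microglia, for the tested members of 19 gene lists, without the 8 genes that defined microglia. Filled points passed an adjusted p of 0.05, open points did not and bars are list medians; interferon-induced genes sit at a median of 1.42 and homeostatic genes at -0.72.

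Interferon-responsive RNAs were higher as a block. Of 39 tested interferon-induced genes, out of 44 listed, 37 rose and 0 fell, with a median log2 fold change of 1.42 against -0.04 over all genes, and of 12 tested GTPases, out of 16 listed, 10 rose and 0 fell, with a median of 1.17. Within strata of RNA depth 36 of 39 interferon-induced genes rose, with a median of 1.06. Ifi211, of the DNA-sensing PYHIN family, had 19.1 to 174 CPM in PD-L1-high microglia (median 100) and 0 to 18.4 in PD-L1-low microglia (median 9.71), a log2 fold change of 3.58 ± 0.17 and an adjusted p of 6.5e-16. The gates did not overlap. Oasl1, which restrains interferon production, rose by 3.20, Rsad2 (viperin, an antiviral enzyme) by 2.56 and Irf7, the factor that drives interferon genes, by 1.83. Gbp2, a GTPase that attacks vacuoles of pathogens, had 27.3 to 971 CPM in PD-L1-high (median 392) and 0 to 164 in PD-L1-low microglia (median 62.4), a log2 fold change of 2.58 ± 0.11. Its ranges overlapped although every sample was higher in its high gate, because the level differed between samples. The related Ifi47 and Iigp1 rose by 2.92 and 2.91. Slfn8, Ddx58, Irgm2 and Gbp9 did not pass, at -0.19, 0.38, -0.02 and 0.24, though Ddx58 did by raw ranks, at 0.47. Many of these genes have close copies among which 3' reads can be split.

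The signalling chain above these genes moved little or in both directions. Of 17 tested genes of interferon gamma signalling, out of 19 listed, 7 rose, 3 fell and 7 did not pass, with a median of 0.20. The receptor chain Ifngr1 fell, with 279 to 582 CPM in PD-L1-high (median 399) and 629 to 941 in PD-L1-low microglia (median 808), a log2 fold change of -1.04 ± 0.09 and an adjusted p of 8.4e-11. The gates did not overlap, and Jak1 fell too, by 0.47 on the log2 scale. Stat2 rose by 0.64, while Irf1, the factor next to Cd274 in the pathway, stood at -0.08, Irf9 at -0.25 and the inhibitor Socs1 at 0.12, none of which passed. By raw ranks Irf9 did pass, at -0.33. Irf2, which competes with Irf1, fell by 0.46.

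The targets of the pathway that attract T cells were far higher in PD-L1-high microglia. Cxcl9 lay between 5.46 and 1230 CPM in PD-L1-high microglia, with a median of 588, and between 5.13 and 22.6 CPM in PD-L1-low microglia, with a median of 11.3. Its log2 fold change was 5.56 ± 0.23 with an adjusted p of 1.9e-17, and it was higher in 9 of 10 samples, the exception being pool 3 hashtag 3. Cxcl10 lay between 32.8 and 1785 CPM in PD-L1-high microglia, with a median of 1112, and between 28.5 and 326 CPM in PD-L1-low microglia, with a median of 65.5, a log2 fold change of 3.46 ± 0.25. Both ligands bind CXCR3 on activated T cells. Of 20 tested chemokines and cytokines, out of 31 listed, 16 rose and 2 fell, with a median of 1.49. The interleukin-1 receptor antagonist Il1rn rose by 3.47, the interleukin-18 binding protein Il18bp by 2.63, Il1b by 2.51, the monocyte attractant Ccl7 by 3.31 and Ccl5 by 2.10. Ccl9 fell by 0.49 and Tgfb1 by 0.44, and Il15 and Il18 did not pass, at -0.36 and 0.25.

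Genes of antigen presentation were higher by smaller steps. Of 22 tested MHC class I genes, out of 23 listed, 16 rose and 0 fell, with a median of 0.58, including the light chain B2m at 0.77, the proteasome activator Psme2 at 1.11, the immunoproteasome subunit Psmb8 at 0.97 and the peptide transporter Tap1 at 0.73. Of 11 tested class II genes, out of 12 listed, 10 rose and 0 fell, with a median of 0.65. H2-Aa, an alpha chain of class II, had 98.3 to 4462 CPM in PD-L1-high (median 2931) and 60.6 to 2006 in PD-L1-low microglia (median 1620), a log2 fold change of 0.94 ± 0.08 and 1.33 by raw ranks. Pool 2 hashtag 3 and both samples of pool 3 were low in each gate, with 98.3 to 156 CPM in PD-L1-high and 60.6 to 91.8 in PD-L1-low microglia. The invariant chain Cd74 rose by 0.96 and the class II regulator Ciita by 0.50. Within strata of RNA depth 7 of 11 class II genes rose, with a median of 0.54.

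Other checkpoint molecules did not follow PD-L1 as a group. Cd274 aside, 13 of 29 listed ligands and costimulators were tested, of which 5 rose and 5 fell, with a median of 0.04 (-0.09 by raw ranks), and Pdcd1lg2, Cd80 and Cd40 were among the 16 too low to test. The inhibitory receptor Lilrb4a, which has a near-identical neighbour, had 7.76 to 277 CPM in PD-L1-high (median 42.5) and 0 to 17.1 in PD-L1-low microglia (median 7.57), a log2 fold change of 3.46 ± 0.22. Vsir, which codes for the T cell inhibitor VISTA, fell, with 266 to 614 CPM in PD-L1-high (median 368) and 665 to 893 in PD-L1-low microglia (median 770), a log2 fold change of -1.04 ± 0.09 and an adjusted p of 6.9e-11. Its gates did not overlap. The poliovirus receptor Pvr rose by 1.02, Lgals9 by 0.50, Pirb by 0.46 and the costimulator Cd86 by 0.36. The sialic acid receptor Siglece fell by 0.86, Sirpa, the receptor of CD47, by 0.52, Havcr2 (TIM-3) by 0.40 and the ectonucleotidase Entpd1 by 0.34, while Cd47 was at 0.04.

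Genes that act on the PD-L1 protein mostly did not pass. Of 19 tested, out of 20 listed, 4 rose, 3 fell and 12 did not pass, with a median of 0.09. Cmtm6, which keeps PD-L1 at the surface, had 94.8 to 221 CPM in PD-L1-high (median 118) and 147 to 288 in PD-L1-low microglia (median 229), a log2 fold change of -0.73 ± 0.09 and an adjusted p of 1.2e-07. It was lower in 10 of 10 PD-L1-high gates, with overlapping ranges, and its relative Cmtm4 was at -0.15. Cdk4 rose by 0.65, the glycosyltransferase subunit Stt3b by 0.37, the ubiquitin ligase adaptor Spop by 0.34 and Trappc4 by 0.23, while the deubiquitinase Usp22 fell by 0.41 and the kinase Gsk3b by 0.36. Stt3b and Trappc4 did not pass under raw ranks, at 0.23 and 0.14, and the median of the group was -0.08 there.

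Homeostatic microglial RNAs were lower and those of disease-associated microglia higher. Of 31 homeostatic genes, all tested, 0 rose and 30 fell, with a median of -0.72. Of 24 tested disease-associated genes, out of 29 listed, 20 rose and 0 fell, with a median of 1.77. Trem2 was counted in the homeostatic list, where it was at -0.29 (-0.24 by raw ranks). Counted as disease-associated, it would have been a fall in that list. Slc2a5, a fructose transporter, had 38.3 to 112 CPM in PD-L1-high (median 85) and 147 to 316 in PD-L1-low microglia (median 223), a log2 fold change of -1.49 ± 0.11. The gates did not overlap. The fractalkine receptor Cx3cr1 fell by 0.83, Sall1 by 0.86 and Csf1r by 0.61, and Bhlhe41 did not pass at -0.07. Spp1 (osteopontin) lay between 22.6 and 3182 CPM in PD-L1-high microglia, with a median of 512, and between 0 and 224 CPM in PD-L1-low microglia, with a median of 14.5, a log2 fold change of 4.15 ± 0.41. Apoe, a lipid carrier, lay between 2111 and 17878 CPM in PD-L1-high microglia, with a median of 4608, and between 230 and 1527 CPM in PD-L1-low microglia, with a median of 822. Its log2 fold change was 2.79 ± 0.20 and the gates did not overlap, and the highest values were in pool 2 hashtag 3 and the samples of pool 3, the same 3 that were low in H2-Aa. The galectin Lgals3 rose by 3.89, the oxidase subunit Cybb by 3.85, the inhibitory coreceptor Cd72 by 3.59, Cst7 by 3.47, Fabp5 by 2.94 and the receptor kinase Axl by 2.81, and Cd9, Cd68, Ctsl and Ccl6 did not pass. Cd9 did pass by raw ranks, at 0.21. Within strata of RNA depth 29 of 31 homeostatic genes fell and 20 of 25 disease-associated genes rose. The selection asked for RNA of 4 homeostatic genes, so cells with the least of these are not among the microglia compared.

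TGF-beta signalling, which maintains homeostatic microglia, had 7 genes lower and 1 higher of 12 tested, out of 16 listed, with a median of -0.35. The receptor Tgfbr1 fell by 0.97, Smad3 by 0.92, Smad7 by 0.69 and Smad4 by 0.69, and Tgif1 rose by 0.47. Glycolysis and hypoxia genes moved the other way, with 17 of 20 tested, out of 26 listed, higher, 0 lower and a median of 1.03, led by Mif at 1.93, Ero1l at 1.70, Pgk1 at 1.61 and Pkm at 1.40. Within strata of RNA depth 16 of 20 rose. Of 18 lysosome and lipid genes tested, 10 rose and 3 fell, with a median of 0.30; the lipid droplet protein Plin2 rose by 1.66 and the cholesterol exporter Abca1 fell by 0.39.

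Fc receptors and complement were split by member. Fcgr4, an activating receptor of antibodies, had 112 to 391 CPM in PD-L1-high (median 290) and 20.5 to 107 in PD-L1-low microglia (median 52.5), a log2 fold change of 2.31 ± 0.13, with no overlap. Of 7 Fc receptor genes tested, 3 rose and 2 fell (Fcrl1 by 1.66 and Fcgr3 by 0.16, which did not pass under raw ranks, at -0.12). Of 13 complement genes tested, 9 rose and 3 fell, from Cfb at 2.66 and C4b at 1.80 to C5ar2 at -1.14. Of 20 NF-kappaB genes tested, 9 rose, among them Ptgs2 at 2.31, 8 did not pass and 3 fell, including the inhibitor Nfkbia by 0.54. Of 9 tested genes listed for the other protein tags, out of 14, 6 rose and 0 fell. Itgb1 and Itgb2, which code for none of the tags, were among the 9, and Itgb2 rose by 0.44. Tmem119, limited by the selection, was not in the list. Its median was 681 CPM in PD-L1-high and 1356 in PD-L1-low microglia, without TMM scaling. Cd52 had 1273 to 3690 CPM in PD-L1-high (median 2224) and 338 to 829 in PD-L1-low microglia (median 627), a log2 fold change of 1.96 ± 0.09, while Itgam (CD11b) and Ptprc (CD45) were at 0.04 and -0.15 and did not pass, although both tags were higher.

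Growth and stress programmes also differed. All 16 cell cycle genes tested, out of 26 listed, rose, with a median of 1.08. Rare ones can enter the test by being high in the PD-L1-high gates alone, so this count can be partly set by the filter. Within strata of RNA depth 11 of 19 rose, with a median of 0.50. Mki67, a marker of dividing cells, was at 2.02 over all cells and 0.43 within strata, where it did not pass. All 26 ribosomal protein genes rose, with a median of 0.67, and 24 within strata. Of 13 mitochondrially encoded genes 12 rose, with a median of 0.34, and 5 within strata. Of 24 genes known to be induced by enzymatic dissociation, 17 fell, led by Jun by 1.29 and Hspa1a by 1.03, and 4 rose, and their summed level was 16256 CPM in PD-L1-high and 28246 in PD-L1-low microglia, lower in 10 of 10 samples. The part of the response to dissociation in the other differences was not tested. Among genes outside the lists, the early activation marker Cd69 rose by 4.01, while Khdrbs3 fell by 1.85, Hbegf by 1.71, Abca9 by 1.70, Csmd3 by 1.69, the scaffold Bank1 by 1.69, Sox4 by 1.61 and the Notch target Hes1 by 1.61.

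The ranking by raw tag asks whether the result depends on setting PD-L1 against the other tags of the cell. The raw PD-L1 count rose with the mean log of the 9 other tags in every sample (Spearman's rho from 0.76 to 0.86 over the cells of a sample). The centred log ratio also rose with this mean, at 0.08 to 0.51, and with RNA UMIs, at 0.12 to 0.46. It thus kept part of the dependence. These values are a description, since the tags share a cell and its depth. By raw ranks the RNA UMIs per cell differed by a geometric mean ratio within samples of 1.81. Interferon-induced genes had a median of 1.42 by centred log ratio and 1.37 by raw count, homeostatic genes -0.72 and -0.63, disease-associated genes 1.77 and 1.62 and MHC class II genes 0.65 and 0.71. A ranking by the residual of PD-L1 on the other tags narrowed this ratio to 1.3, with 5767.75 UMIs in PD-L1-high and 4947 in PD-L1-low microglia, and Cd274 was at 2.24 there; 2855 of its 3030 calls were among those by centred log ratio, in the same direction, and 0 in the opposite one.

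**Figure D4:**
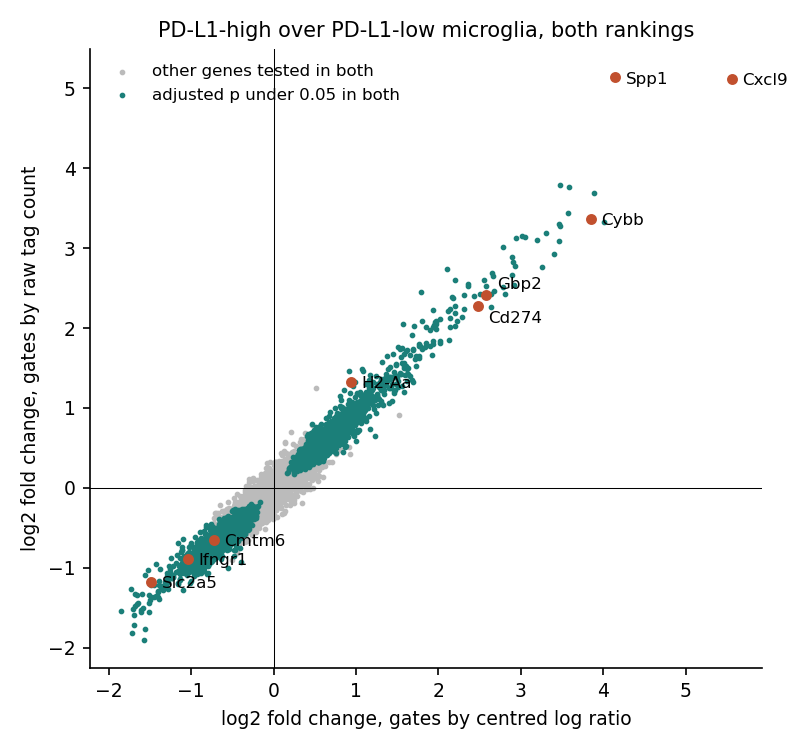
Log2 fold change of each gene tested in both rankings, PD-L1-high over PD-L1-low microglia, by centred log ratio (horizontal) and raw tag count (vertical), without the 8 genes that defined microglia. Green points passed in both, orange points are labelled genes, and Cd274 lies at 2.48 and 2.27.

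The same gates were drawn in infiltrating cells, which held at least 3 UMIs of Ms4a7, Ly6c2, Plac8 and Ccr2 and at most 1 of the 4 microglia genes. Over 9 hashed samples with gates in both classes, 2023 of 8788 genes (23%) had a more positive and 1458 (16.6%) a more negative PD-L1 contrast in microglia than in infiltrating cells. Cd274 had a log2 fold change of 2.47 in microglia and 0.53 in infiltrating cells, a difference of 1.94 ± 0.22 with an adjusted p of 1.8e-08 in edgeR's test of the interaction. Lists were counted over the 6350 genes that could also be tested in each class alone, of which 25.7% were more positive and 17.7% more negative in microglia. All 39 such interferon-induced genes were more positive in microglia, with medians of 1.5 in microglia and -1.43 in infiltrating cells, and so were all 12 GTPases, with medians of 1.22 and -0.92. Ifi211 was at 3.60 in microglia and -1.57 in infiltrating cells, Cxcl10 at 3.56 and -2.43 and Gbp2 at 2.60 and -1.57, and the least certain of these differences, that of Cxcl10, had an adjusted p of 1.8e-12. Glycolysis and hypoxia genes were more positive in 17 of 20 and homeostatic genes more negative in 18 of 22, with 9 further homeostatic genes, Sall1 and Slc2a5 among them, too low in infiltrating cells to be tested there. Other genes differed in the same direction in both classes. Apoe was at 2.69 in microglia and 0.78 in infiltrating cells, a difference that passed (adjusted p 5e-06), Spp1 at 4.08 and 2.96 with no difference passing (adjusted p 0.22), and Cmtm6 at -0.77 and -0.76 (adjusted p 0.97). Within infiltrating cells the PD-L1-high gate held less Ly6c2 and Plac8, at -1.97 and -2.99, and more Ms4a7, at 1.84, genes used to pick this class, and the part of these shifts in the difference between classes was not tested. Infiltrating cells carried far more of the protein, with median PD-L1 tags of 381, 444.5 and 371 UMIs in the 3 pools, against 27, 28 and 21 in microglia of hashtags 3 to 6.

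**Figure D5:**
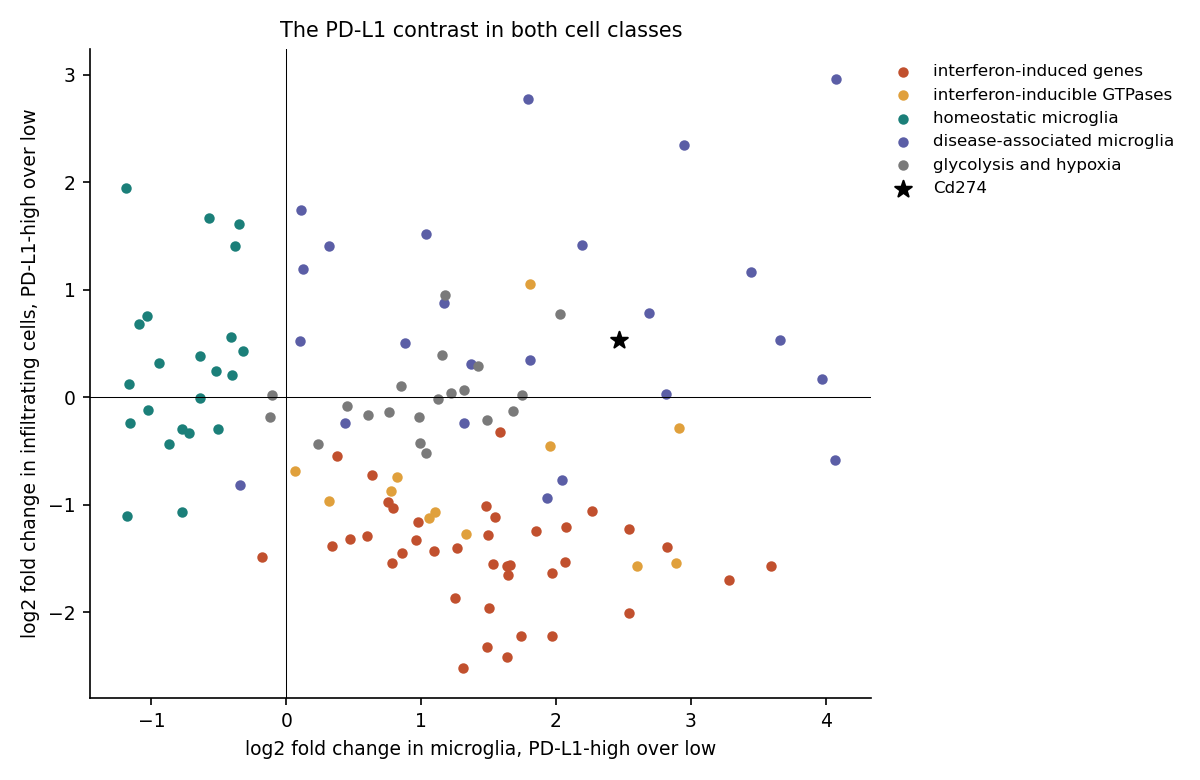
Log2 fold change, PD-L1-high over PD-L1-low, in microglia (horizontal) and in infiltrating cells (vertical) for the genes of 5 lists that were tested in each class, and Cd274 as a star at 2.47 and 0.53. Interferon-induced genes lie to the right of 0 in microglia except for 1, and below 0 in infiltrating cells, at a median of -1.43.

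Microglia under hashtags 1 and 2, whose median PD-L1 tag was 10 to 19 UMIs per sample, were gated the same way over 6 samples. Of 7069 genes tested, 61 (0.863%) passed, 58 of them higher in the PD-L1-high gate. By raw ranks 135 of 6961 (1.94%) passed, 125 of them higher. Apoe rose by 1.41, Csf1 by 1.30, Cxcl2 by 1.16, Lgals3 by 1.04 and Cxcl10 by 0.75, and 9 of 24 dissociation-induced genes were higher, against 17 lower in hashtags 3 to 6. Of 18 disease-associated genes tested there, out of 29 listed, 7 were higher and 0 lower, with a median of 0.24. Of 17 chemokines and cytokines tested, out of 31 listed, 7 were higher and 0 lower, with a median of 0.41. None of 20 interferon-induced genes tested, out of 44 listed, passed, with a median of 0.14. Ifi211, Oasl1 and Rsad2, which rose in hashtags 3 to 6, were among those not tested. None of 31 homeostatic genes passed, with a median of -0.08. Cd274 was too low there to be tested. The contrasts of the 2 sets of samples were not tested against each other.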

How the data were processed

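RNA and antibody tags of 3 pools were read with the Chromium 3' v3 kit with Feature Barcoding, per the labels' protocols. The deposited matrices hold raw UMI counts per gene or tag and barcode, made by the authors with Cell Ranger (3.0.1 and 4.0.0) after bcl2fastq 2.20.0.422 on build mm10, per the submitters' processing notes, which also name Seurat 3. Per the file headers, the matrix of pool 1 was written by version 3.1.0 and the others by 4.0.0, so the pools' counts may differ by version. Comparisons within a hashed sample do not cross pools.

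Counts were summed per gate and hashed sample over 30406 genes present in all pools, giving 188609 to 1616530 UMIs per gate. Gates were compared with edgeR 4.0.16 (R 4.3.3) by its quasi-likelihood test, with TMM scaling, filterByExpr, a term for each hashed sample and Benjamini-Hochberg adjustment over all genes tested, at 0.05. The pairing comes from the design, since both gates are cells of 1 hashed sample. The steps were tested on simulated data. Measures per cell were compared by a 2-sided exact sign permutation test. Barcodes with mixed hashtags were left out, which removes doublets between samples; no doublet caller was run, and leaving out the 5% of cells richest in UMIs is an alternative. Pool numbers were not taken to mark shared groups. Alternatives were another scaling, DESeq2 1.42.0, no filter, other gates, stricter cell choices and leaving out each pool; leaving out hashtag 3 of pool 3, the hashtag and CCR2 measures, and counting lists over genes tested in each cell class, were chosen after seeing the data. Intervals cover counting error only. Infiltrating cells also had under 2 UMIs of Nkg7, Gzma, Cd3e and S100a9 together.

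The cells and gene lists were chosen with earlier results of these data known. Named genes were Cd274, passing members of the checkpoint, trafficking and interferon gamma lists, the 4 largest changes of each other list and the 10 largest rises and falls, overall and over both rankings. Apoe, Axl, B2m, Fabp5, Cx3cr1, Irf7, Abca1, Ccl5, Ccl9, Csf1r, Fcgr3, Il18bp, Il1b, Lyz2, Nfkbia, Sall1, Tap1, Tgfb1, Tgif1 and Trem2 fall outside this rule. So do the genes given for hashtags 1 and 2 and the members given as not passing. All of these were chosen after their values were seen. The 8 genes that defined microglia are no findings. Some results are not reported here.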

Additional observations from a re-analysis of the deposited data

Results flagged for a closer look

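Of 44 groups of 10 hashed samples, 18 genes and 4 measures per cell in both gates, 4 had 1 sample far from the other 9, where chance gives about 1 in 20 groups. Gbp2 was at 971 CPM in the PD-L1-high gate of pool 1 hashtag 3, against 27.3 to 529 in the other PD-L1-high gates. Vsir was at 614 CPM in the PD-L1-high gate of pool 3 hashtag 3, against 266 to 443 in the others. Pool 2 hashtag 5 stood high in its PD-L1-low gate for both Cd274, at 39.9 CPM against 0 to 18.1, and Cd72, at 41.8 CPM against 12.2 to 25.6.

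Among the genes followed in both microglia and infiltrating cells, the PD-L1 contrast differed for 5 by the interaction test. Others, Spp1 among them, did not pass. Slc2a5 did not pass either, but it was too low in infiltrating cells to be tested there alone, so its result does not show a like contrast. The genes followed were taken from those described above. Of all 8788 genes, 23% had a more positive and 16.6% a more negative contrast in microglia. The difference in log2 fold change, microglia minus infiltrating cells, was 5.99 for Cxcl10, 5.17 for Ifi211, 4.18 for Gbp2, 1.94 for Cd274 and 1.91 for Apoe. Cxcl10, Ifi211 and Gbp2 had opposite signs in the classes, and Cd274 and Apoe the same sign.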

How the results depend on the processing

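The log2 fold change of Cd274 lay between 1.70 and 2.96 over 19 settings by centred log ratio (highest adjusted p 8.2e-07), between 1.5 and 2.47 over 16 settings by raw count (1.9e-06), and its difference between the classes between 1.77 and 2.0 over 5 settings, raw ranks with all pools included (0.00015); by raw ranks without pool 1 it was 1.70 (0.0024). Counts of genes moved more. By centred log ratio, 1162 genes were higher with the top and bottom 10% of cells and 2759 lower under library size alone. By raw count, 1021 were higher and 1114 lower with the top and bottom 10%, and 2784 lower under library size alone. Leaving out a pool gave 1061 to 1790 higher and 1023 to 1849 lower genes by centred log ratio, the lowest in both directions without pool 2. By raw count it gave 1052 to 1692 higher, the lowest without pool 2, and 1047 to 1737 lower, with 1047 without pool 1 and 1050 without pool 2. The contrast differed between classes for 2008 to 3503 genes by centred log ratio and 1785 to 3292 by raw count, the lowest without pool 1 in both. Fewer cells or samples enter these fits; the cause was not tested further.

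Without the pairing of gates within hashed samples, 1460 genes were higher and 1314 lower and Cd274 was at 2.47; with counts summed per pool and the pool as block, where 9724 genes were tested, 1910 were higher and 1623 lower and Cd274 was at 2.50. Of values of named genes under the alternatives, 2271 by centred log ratio and 1824 by raw count kept direction and call, 113 and 56 lost the call, and 1 turned: Tgif1 by raw count was at -0.032 within strata of RNA depth; the cause was not tested. Medians changed sign under at least 1 alternative for the trafficking genes (-0.10 to 0.13 by centred log ratio), checkpoint genes with Cd274 among them (-0.14 to 0.50) and Fc receptors (-0.01 to 0.43). By raw count, medians changed sign for the trafficking and checkpoint genes too. They also did so for interferon gamma signalling (-0.12 to 0.12) and NF-kappaB genes (-0.06 to 0.38). Low genes are limited by depth, and 30406 genes gave 6791 that could be tested.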
